A study of Mus musculus with 12 samples.

Results

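The small proline-rich proteins (Sprr) are a family of envelope proteins of stratified squamous epithelium, and 10 of their mouse genes were followed here across every forestomach sample of the series. The 10 genes were Sprr1a, Sprr1b, Sprr2b, Sprr2d, Sprr2e, Sprr2f, Sprr2g, Sprr2h, Sprr2i and Sprr3, chosen with earlier results of these data known. A probe was assigned to a gene when the array's own gene name matched it. By that rule 9 of the 10 genes had a probe, with 1 probe each, among the 41174 probes and 28146 gene names of the array. Sprr2i had no probe of its own, but the Sprr2e probe also lists the transcript of Sprr2i, so its value can hold both genes. All 9 probes passed the filter on dim probes, which left 30440 probes in the tests.

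Total RNA of whole forestomach from adult wild-type C57BL/6J mice was labelled with Cy5 and hybridised to an Agilent array against Agilent's Universal Mouse Reference RNA labelled with Cy3, in 12 samples. The 4 control samples came from mice on supersaccharin with 0% alcohol, 4 samples from mice on supersaccharin with 20% alcohol for 4 weeks, and 4 samples from mice given 15% alcohol for 40 weeks. The question was whether alcohol drinking changes gene expression in the forestomach. The labels do not mention saccharin for the 40-week mice, and no control of the same age or duration was analysed here, so the duration, the dose and the vehicle of that group cannot be told apart. The labels do not say whether the 4 samples of a group came from separate mice, so p-values measure the spread among these samples, which may be technical. No dyes were swapped. Scanner values of both channels were used for the 8 control and 4-week arrays; the 40-week samples were compared through the deposited log2 Cy5/Cy3 ratios, since their scanner values were not analysed here. The 4 control arrays lay on one slide and the 4-week arrays on another, so slide and treatment cannot be told apart.

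Small proline-rich proteins are made by keratinocytes late in squamous differentiation. Transglutaminases join them, through glutamine and lysine residues, to one another and to loricrin, involucrin and late cornified envelope proteins, which builds the cornified envelope, the protein shell beneath the plasma membrane of the dead outer cells. Their central repeats, rich in proline, act as flexible bridges between the other envelope proteins. The rodent forestomach, unlike the glandular stomach beside it, is lined by a keratinised squamous epithelium of this kind. The genes lie together in the epidermal differentiation complex, on mouse chromosome 3, where RefSeq orders them as Sprr2b, Sprr2d, Sprr2e, Sprr2f, Sprr2g, Sprr2h, Sprr2i, Sprr1b, Sprr3 and Sprr1a, with pseudogenes and other Sprr genes between some of them. RefSeq lists Sprr2g as a transcribed pseudogene.

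The Sprr2 genes are close relatives with repeated coding sequence, so the probe letters bear on how far their values are separate. Each probe is 60 bases long. The probes of Sprr2b (chr3:92121449-92121508, plus strand, mm9 as given by the array files) and Sprr2e (chr3:92156847-92156906, plus strand) share a run of 22 bases with each other. Runs of 15 to 28 bases are also shared with the probes of Sprr2k and the pseudogene Sprr2j-ps, which belong to the family but not to the 10 genes. In these 4 probes, capitals mark the bases within a run of at least 15 shared with another of the 4.
Sprr2b: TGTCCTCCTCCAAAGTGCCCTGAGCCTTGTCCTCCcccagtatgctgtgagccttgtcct
Sprr2e: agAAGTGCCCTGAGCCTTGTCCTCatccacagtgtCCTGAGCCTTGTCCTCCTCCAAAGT
Sprr2k: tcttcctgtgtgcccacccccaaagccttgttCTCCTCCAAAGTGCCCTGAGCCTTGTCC
Sprr2j-ps: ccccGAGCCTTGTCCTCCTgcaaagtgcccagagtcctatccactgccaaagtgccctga
Signals of these 4 probes were therefore read as possibly shared between the transcripts. The other 7 member probes share no run of 15 bases with another Sprr probe. That of Sprr2f shares a run of 15 with the probe of Kifap3. At the best offset the Sprr2g probe matches those of Sprr2b and Sprr2e at 33 and 32 bases. Between Sprr2b and Sprr2e that number is 40. Probes were compared only with other probes, so matches to other Sprr transcripts were not searched. The probes of Sprr1a (chr3:92287955-92288014, minus strand), Sprr3 (chr3:92261160-92261219, minus strand) and Sprr2d (chr3:92144721-92144780, plus strand), on which much of the comparison below rests, are shown by their first 30 bases.
Sprr1a: gctcctgagcctcttaacattgcccaaagt
Sprr3: ggccatgttctacaaacatcactgagccag
Sprr2d: ttgccaaaaactctcaatcacctttggttt
The remaining probes lie at chr3:92241009-92241068 (Sprr1b, minus strand), chr3:92170259-92170318 (Sprr2f, plus strand), chr3:92178685-92178744 (Sprr2g, plus strand) and chr3:92191186-92191245 (Sprr2h, plus strand). No mm9 gene models were used here, so the exon or UTR under a probe is not given.

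Promoters of 9 of the 10 genes, from 250 bases before to 50 bases after the start, were read from RefSeq on GRCm38.p6, a later build than that of the probe positions. These windows were searched on both strands for 4 motifs of factors described for Sprr promoters. A link between the motifs and the ratios described further on was not tested. The AP-1 motif TGANTCA, bound by Fos and Jun proteins, was found in 8 of the 9 promoters and in 7.81% of the 32851 promoters in the table. It lay at -193 in Sprr2d, Sprr2e and Sprr2i, at -195 in Sprr2b, at -197 in Sprr2f and at -198 in Sprr2h, counted from the gene start. In Sprr1b it lay at -111, and Sprr1a had it at -146 and again at -116. The windows around these matches are given here, 35 bases each with the motif in capitals. The flanks of Sprr2d and Sprr2e are nearly the same, and those of the other Sprr2 genes differ more. The likeness of the flanks was not measured.
Sprr1a, chr3:92486007-92486041, minus strand: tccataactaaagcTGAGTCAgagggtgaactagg
Sprr1a, chr3:92485977-92486011, minus strand: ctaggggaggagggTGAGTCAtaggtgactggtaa
Sprr1b, chr3:92438870-92438904, minus strand: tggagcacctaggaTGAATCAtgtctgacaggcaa
Sprr2b, chr3:92316496-92316530, plus strand: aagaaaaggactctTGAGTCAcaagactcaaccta
Sprr2d, chr3:92338933-92338967, plus strand: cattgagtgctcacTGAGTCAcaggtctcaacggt
Sprr2e, chr3:92351936-92351970, plus strand: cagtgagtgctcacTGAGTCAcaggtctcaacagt
Sprr2f, chr3:92364976-92365010, plus strand: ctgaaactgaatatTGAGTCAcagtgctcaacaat
Sprr2h, chr3:92385473-92385507, plus strand: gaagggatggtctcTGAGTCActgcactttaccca
Sprr2i, chr3:92407784-92407818, plus strand: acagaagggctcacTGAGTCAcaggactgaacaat
The Sprr3 window held no match to TGANTCA. The ETS motif GGAAGT was in 2 of the 9 promoters, Sprr2b and Sprr3, against 23.8% of all promoters, and CACCC, the core of KLF sites, was in 4 of 9 against 57.5%. One CACCC match of Sprr1a, at -119, overlaps its AP-1 match at -116. The letters TATAA were in all 9 promoters, against 24.9% of all, at -29 in the 6 Sprr2 genes, -30 in Sprr1b and -33 in Sprr3, and farther out in Sprr1a, at -43, -44 and -179. A match describes letters in the window and not a bound site.

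**Figure D1:**
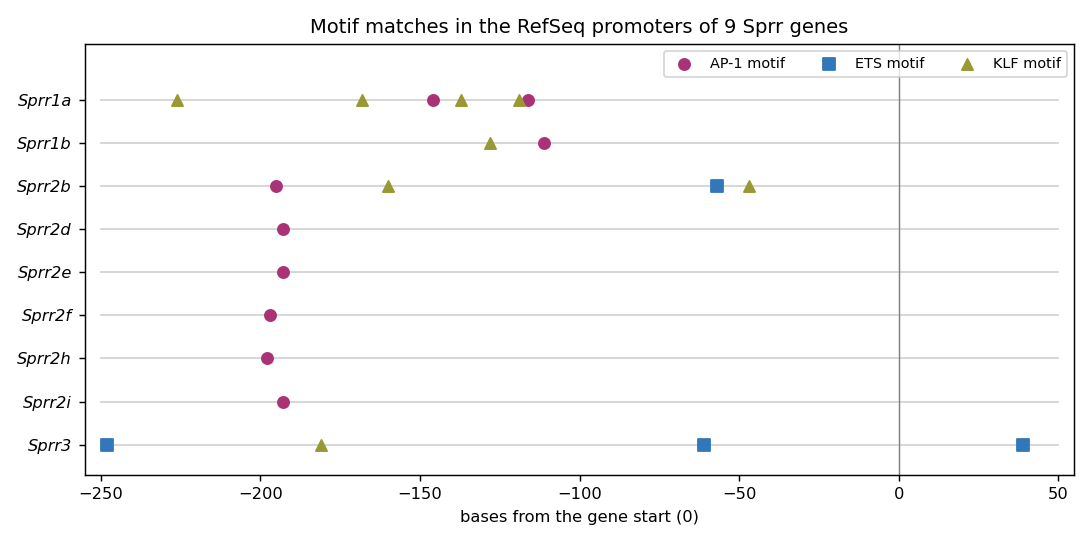
Positions of matches to the AP-1 (circles), ETS (squares) and KLF (triangles) motifs in the RefSeq promoters of 9 Sprr genes, with the distance from the gene start in bases on the x axis and 1 line per gene. The AP-1 matches of the 6 Sprr2 genes lie between -198 and -193, those of Sprr1a and Sprr1b lie nearer the start, and the Sprr3 window has none.

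The labelled tissue was checked against its markers before the family was compared. All 10 markers of squamous epithelium were detected, Dsc3 not on every array, and their summed Cy5 signal ranged from 360141 to 764133 in controls and from 179255 to 437559 at 4 weeks. Several samples stood apart, and results that rest on them are given with and without them. Control replicate 4 and 4-week replicate 2 had summed Cy5 signals of 1542551 and 1877455 for markers of glandular stomach, against 637 to 21926 on the other 6 arrays (10 of 12 markers kept, Gif and Gkn1 not among them). Control replicate 3 had 2910054 for pancreas markers, and control replicate 4 and 4-week replicate 2 had 498602 and 496860, against 553 to 2733 elsewhere. These 3 are called the mixed-organ arrays. In 40-week replicates 3 and 4 the deposited Xist ratios were 1.96 and 1.55, against -9.70 to -5.40 in the other 10 samples, and Ddx3y was at -4.26 and -4.02 against 0.49 to 1.49; the labels give no sex. Across the 8 arrays 64.8% to 78.8% of spots were well above background in Cy5 and 72.9% to 84.9% in Cy3. The precision is limited by the number of arrays.

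Every Sprr probe gave forestomach signal. All 9 were well above background in Cy5 on 8 of 8 arrays and none was saturated, and in Cy3 the same held except for Sprr2f, which was above background on 7 of 8. In the deposited ratios the mean of each of the 9 genes was highest in the controls, lower at 4 weeks of 20% alcohol and lowest at 40 weeks of 15% alcohol. Control and 4-week samples did not overlap for 7 of the 9 genes, against 11.6% of all 30440 probes, and 6 of 9 were called lower at 4 weeks when all 12 deposited columns were fitted together (limma; 3.05% of all probes). The same values of the 8 control and 4-week arrays fitted alone gave 0 of 9, and 0 of all 30440 probes (limma). In that fit 8 of 9 had an unadjusted p under 0.05, against 5290 of all 30440 probes. Control and 40-week samples did not overlap for 7 of 9 genes (41.7% of all probes), and 4-week and 40-week samples for 4 of 9 (46.8%). The deposited 40-week columns have a narrower spread over all probes (SD 1.02 to 1.08, against 1.48 to 1.73 in the other 8), so the step to 40 weeks is given below under other scalings too. A lower ratio can hold a lower Cy5 signal, a higher Cy3 signal or both, and the 2 channels of the control and 4-week arrays are given apart below. Where the forestomach signal itself is lower, fewer squamous cells and less RNA per cell cannot be told apart in whole tissue.

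Sprr3, a family member found mainly in the squamous lining of internal organs such as the oesophagus, had deposited log2 ratios of 6.64, 6.18, 6.77 and 6.15 in control replicates 1 to 4, of 5.42, 4.39, 5.29 and 4.97 at 4 weeks, and of 4.02, 4.33, 4.11 and 4.51 at 40 weeks. All controls lay above all alcohol samples, while the 4-week and 40-week samples overlapped through 4-week replicate 2. Sprr1a, an envelope precursor also known as a gene of injured nerve, had 4.24, 4.65, 4.53 and 4.2 in the controls, 3.4, 2.74, 3.69 and 3.19 at 4 weeks and 1.99, 2.35, 2.19 and 2.2 at 40 weeks. Its groups did not overlap anywhere. Sprr1b, the nearest relative of Sprr1a, had 3.18, 3.54, 4.09 and 3.18, then 2.88, 2.92, 2.92 and 3.01, then 2.36, 2.23, 2.56 and 3.0. For Sprr1b the alcohol groups overlapped each other, and control replicate 3 was the highest sample.

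The Sprr2 proteins, the short and most numerous group of the family, included both the most separate and the least separate profiles. Sprr2d had deposited log2 ratios of 6.25, 6.09, 6.52 and 6.03 in the controls, 4.8, 4.3, 5.39 and 4.72 at 4 weeks and 2.84, 3.36, 3.15 and 3.25 at 40 weeks. Sprr2b had 4.27, 4.42, 4.87 and 4.46, then 3.81, 3.41, 3.68 and 3.46, then 1.74, 2.08, 1.73 and 2.14. Sprr2g had 3.82, 3.74, 3.97 and 3.5, then 3.15, 3.19, 3.29 and 3.01, then 1.39, 1.46, 1.18 and 1.5. For Sprr2d, Sprr2b and Sprr2g all 3 groups were apart from one another. Sprr2e had 3.81, 3.25, 3.8 and 3.08 in the controls, 2.91, 2.18, 2.71 and 2.42 at 4 weeks and 1.92, 2.12, 2.05 and 2.27 at 40 weeks, with an overlap between the alcohol groups alone.

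Sprr2f and Sprr2h varied more among the controls and among the 4-week samples than the other members did. Sprr2f, known as a gene of the uterus that oestrogen raises, had deposited log2 ratios of 3.88, 4.28, 4.87 and 6.29 in the controls, 3.12, 5.09, 3.82 and 5.29 at 4 weeks and 3.93, 3.79, 3.69 and 4.08 at 40 weeks. Its 3 groups all overlapped, and the high samples were control replicate 4 and 4-week replicates 2 and 4. Sprr2h had 0.95, 2.06, 1.62 and 2.69, then 0.34, 0.7, 0.3 and 1.79, then -0.55, -0.09, 0.78 and 1.05. Its groups overlapped as well, and its 40-week values were below 0 in replicates 1 and 2 and above 0 in replicates 3 and 4, the replicates set apart by Xist. The part of that sample difference in the Sprr2h values was not tested. The SD of the deposited ratio among controls was 1.05 for Sprr2f and 0.73 for Sprr2h, against 0.2 to 0.43 for the other 7 genes. At 4 weeks it was 1.04 and 0.69, against 0.06 to 0.46, and at 40 weeks it was 0.75 for Sprr2h but 0.17 for Sprr2f, within the 0.14 to 0.34 of the others.

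**Figure D2:**
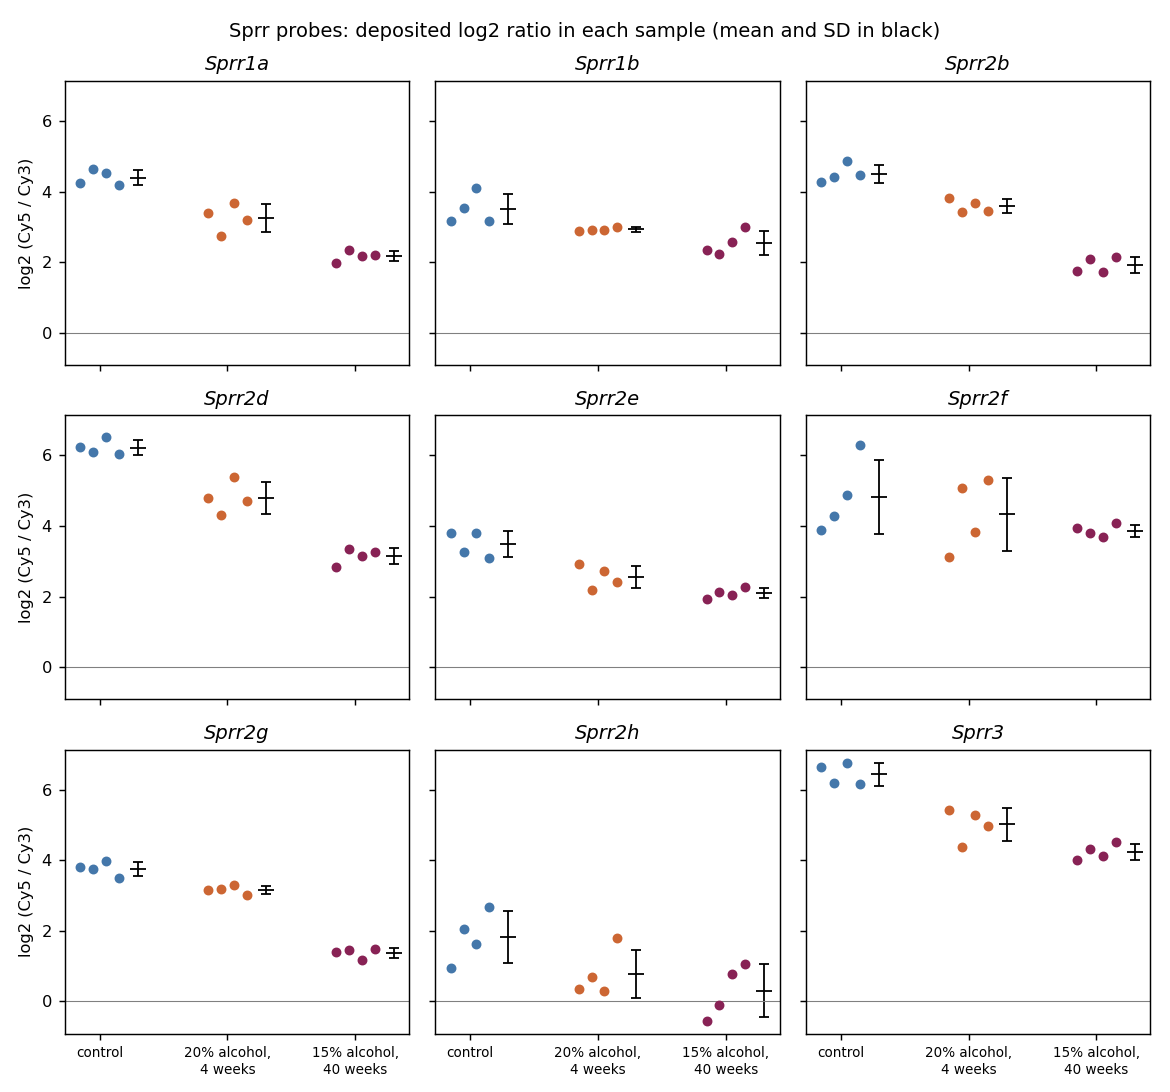
Deposited log2 Cy5/Cy3 ratio (y axis) of the 9 Sprr probes in each of the 12 samples, grouped as control, 20% alcohol for 4 weeks and 15% alcohol for 40 weeks; points are samples, and black bars give each group mean with its SD. The groups of Sprr1a, Sprr2b, Sprr2d and Sprr2g lie apart from one another, while those of Sprr2f and Sprr2h overlap. Of all probes, 11.6% had no overlap between control and 4 weeks, 41.7% between control and 40 weeks and 46.8% between the alcohol groups.

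Across the 12 samples each member was set against the mean of the other members, as a description over samples that share their groups. Pearson's r was highest for Sprr2d (0.97), Sprr2b (0.967) and Sprr1a (0.957), and lowest for Sprr2f (0.421) and Sprr2h (0.709), with 0.86 to 0.927 for the other 4. In Cy5 alone over the 8 arrays the same measure ran from -0.396 for Sprr1a and -0.029 for Sprr3 to 0.634 for Sprr2g. These values cover different samples, and in the first case the separation of the groups enters the coefficient.

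After 4 weeks of 20% alcohol, 2 of the 9 Sprr genes fell in the Cy5/Cy3 ratio computed from the scanner signals, against 0.575% of all 30440 probes that were called lower. These were Sprr2d, which fell by 1.39 on the log2 scale (SE 0.22, n = 4 against 4, limma, Benjamini-Hochberg adjusted p = 0.0403), a 2.63-fold lower ratio, and Sprr2b, with a log2 change of -0.87 ± 0.16 (SE, adjusted p = 0.0493, limma). None was called higher (0.181% of all probes). The scanner ratios of Sprr2d were 6.15, 6.02, 6.45 and 5.95 in the controls and 4.74, 4.25, 5.32 and 4.69 at 4 weeks, and those of Sprr2b were 4.22, 4.38, 4.84 and 4.41 against 3.79, 3.44, 3.68 and 3.46. Neither gene's groups overlapped.

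The other 7 genes had lower means without passing the threshold. Sprr3 came nearest, at -1.34 ± 0.24 (SE, limma adjusted p = 0.0503), followed by Sprr1a at -1.05 ± 0.20 (adjusted p = 0.0631). The values of Sprr2e were -0.90 ± 0.22 (limma adjusted p = 0.0914), of Sprr2g -0.60 ± 0.14 (0.0832) and of Sprr2h -0.85 ± 0.31 (0.213). Sprr2f, at -0.61 ± 0.69, and Sprr1b, at -0.47 ± 0.24, were within their spread (limma adjusted p = 0.691 and 0.343). Over the family the median change was -0.87, against -0.01 over all probes tested. All 9 values were below 0 (51.5% of all probes), 7 had an unadjusted p under 0.05 (17.8%), and the groups of 6 did not overlap (11.7%), namely Sprr1a, Sprr2b, Sprr2d, Sprr2e, Sprr2g and Sprr3.

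The calls at 4 weeks were close to the threshold. Leaving out any 1 of the 8 arrays left 0 of the 9 called. So did median centring in place of loess and scaling the arrays to one spread, which called 0 of all 30440 probes. Leaving out an array called at most 20 of all probes lower and 2 higher, so these zeros are not particular to the family. The scanner's own processed signals gave 5 of the 9, with 406 of all probes called lower. Without the 3 mixed-organ arrays, Sprr3 was called (-1.10, limma adjusted p = 0.0498) while Sprr2d (-1.17, adjusted p = 0.052) and Sprr2b (-0.65, adjusted p = 0.0785) were not. Of all probes 325 were called lower in that fit.

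In the forestomach channel by itself, no Sprr gene was called after 4 weeks (limma on normalised Cy5; 0 of 9 either way, against 0.22% of all probes). An unadjusted p under 0.05 was reached by 2 of 9, against 15.9% of all probes. The median change of the 9 was 0.08, beside -0.00 over all probes, and 4 of the 9 values were below 0 (50.2% of all probes). Sprr2d was at -0.62 ± 0.22 (SE, n = 4 against 4, limma adjusted p = 0.23), Sprr2h at -0.50 ± 0.27 (adjusted p = 0.397), Sprr2f at -0.47 ± 0.65 (0.758) and Sprr2g at -0.34 ± 0.25 (0.536). Above 0 were Sprr1a at 0.48 ± 0.11 (limma adjusted p = 0.0976), Sprr2b at 0.24 ± 0.37 (0.784), Sprr3 at 0.21 ± 0.20 (0.638), Sprr1b at 0.17 ± 0.48 (0.894) and Sprr2e at 0.08 ± 0.37 (0.936). Sprr1a was the 1 member whose normalised Cy5 groups did not overlap (10.5% of all probes), at 17.21 to 17.53 in the controls and 17.85 to 17.97 at 4 weeks on the log2 scale.

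In the reference channel, which holds the same commercial RNA on every array, Sprr1a and Sprr3 rose on the slide of the 4-week arrays. The normalised Cy3 change was 1.50 ± 0.14 for Sprr1a (SE, limma adjusted p = 0.00101) and 1.51 ± 0.11 for Sprr3 (adjusted p = 4.04e-04), so 2 of 9 were called higher, against 4.9% of all probes. The next largest were Sprr2b at 1.01 ± 0.33 (limma adjusted p = 0.0933), Sprr2e at 0.89 ± 0.42 (0.219), Sprr2d at 0.71 ± 0.19 (0.0571) and Sprr1b at 0.64 ± 0.34 (0.268). Sprr2g at 0.19 ± 0.21, Sprr2h at 0.16 ± 0.08 and Sprr2f at 0.04 ± 0.12 were the smallest. The median of the 9 was 0.71, beside -0.03 over all probes. None of the 9 was below 0 (58.8% of all probes), and the groups of 3 did not overlap (19.1% of all probes), namely Sprr1a, Sprr2d and Sprr3. Without the 3 mixed-organ arrays 4 were called, Sprr2b (1.08) and Sprr2e (1.06) in addition, and without 4-week replicate 4 also 4, with Sprr2d (0.50) and Sprr2h (0.22) in addition. Of all 30440 probes 347 and 1608 were called higher in these fits, in that order.

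Before any normalisation between arrays, the signals of most probes were lower on the 4-week arrays. The median over kept probes of the 4-week mean divided by the control mean was 0.601 in Cy5 and 0.798 in Cy3. Against this the 9 Sprr probes ran from 0.282 (Sprr2h) to 0.793 (Sprr1a) in Cy5, and from 0.848 (Sprr2f) to 2.36 (Sprr3) in Cy3. For Sprr3 the Cy5 signals were 168063, 234283, 410368 and 239144 on control arrays 1 to 4 and 220799, 192634, 189263 and 90672 on 4-week arrays, and the Cy3 signals were 3873, 4270, 4006 and 4912 against 9507, 11967, 9015 and 9739. The Cy5 signals of Sprr3 overlapped between the groups, and every Cy3 signal of the 4-week arrays was above every control one. For Sprr1a the Cy5 signals were 189994, 258507, 321675 and 201221 against 198043, 255176, 201613 and 115892, and the Cy3 signals were 19736, 12536, 13404 and 14807 against 32318, 43808, 27304 and 38627. Sprr1a repeated that arrangement, with overlap in Cy5 and none in Cy3. These 2 were the Sprr genes without overlap in Cy3 before normalisation, against 45.9% of all kept probes.

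Sprr2d was the 1 gene of the 9 whose Cy5 signals before normalisation did not overlap between the groups, against 26.7% of all kept probes. They were 59666, 74558, 115086 and 72879 on control arrays and 28998, 31051, 31963 and 23940 on 4-week arrays, so the 4-week mean was 0.36 of the control mean, beside the median of 0.601 over all kept probes. After normalisation 4-week replicate 4 reached 15.78 on the log2 scale, inside the control range of 15.7 to 15.99. The Cy3 signals of Sprr2d overlapped, at 2058, 1655, 1672 and 1919 against 2320, 2690, 1702 and 3505.

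For Sprr2b and Sprr2e, whose probes share letters, both channels were at their highest 4-week value on replicate 2. The Cy5 signals of Sprr2b were 35786, 57715, 118392 and 136771 on control arrays and 40086, 143187, 46608 and 23420 on 4-week arrays, with Cy3 signals of 4762, 3930, 4830 and 9023 against 5968, 17524, 7374 and 7882. Those of Sprr2e were 23077, 25038, 67739 and 64851 against 21086, 71947, 19801 and 10788 in Cy5, and 4401, 4044, 6008 and 11557 against 6064, 21483, 6491 and 7791 in Cy3. In both genes control replicate 4 and 4-week replicate 2, the arrays with glandular stomach transcripts, had the highest Cy3 signal of their group. Control replicate 3 was high in Cy5 too, at 118392 for Sprr2b and 67739 for Sprr2e, with Cy3 signals below those of replicate 4. The part of the glandular transcripts in these values was not tested.

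Sprr2f and Sprr2h were read at low signals on most arrays. The Cy5 signals of Sprr2f were 297, 609, 720 and 3452 on control arrays and 164, 1067, 227 and 325 on 4-week arrays. Both groups had their highest value on the array with glandular stomach transcripts, and without the 3 mixed-organ arrays the ratio change of Sprr2f was -0.06 in place of -0.61. Sprr2h had Cy5 signals of 88.9, 263, 194 and 400 on control arrays and 56.9, 97.3, 50.3 and 62.3 on 4-week arrays, beside Cy3 signals of 112 to 124 and 87.5 to 136. On control arrays 2, 3 and 4 its Cy5 was above its Cy3, and on the 4-week arrays and control array 1 below it.

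Sprr1b and Sprr2g kept Cy5 above Cy3 on every array, and both channels overlapped between the groups. The Cy5 signals of Sprr1b ran from 723 to 2844 on control arrays and from 619 to 1331 on 4-week arrays, and those of Sprr2g from 2172 to 6891 and from 1143 to 2382. Control replicate 3, the array with the highest pancreas signal, was the highest of its group for both.

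**Figure D3:**
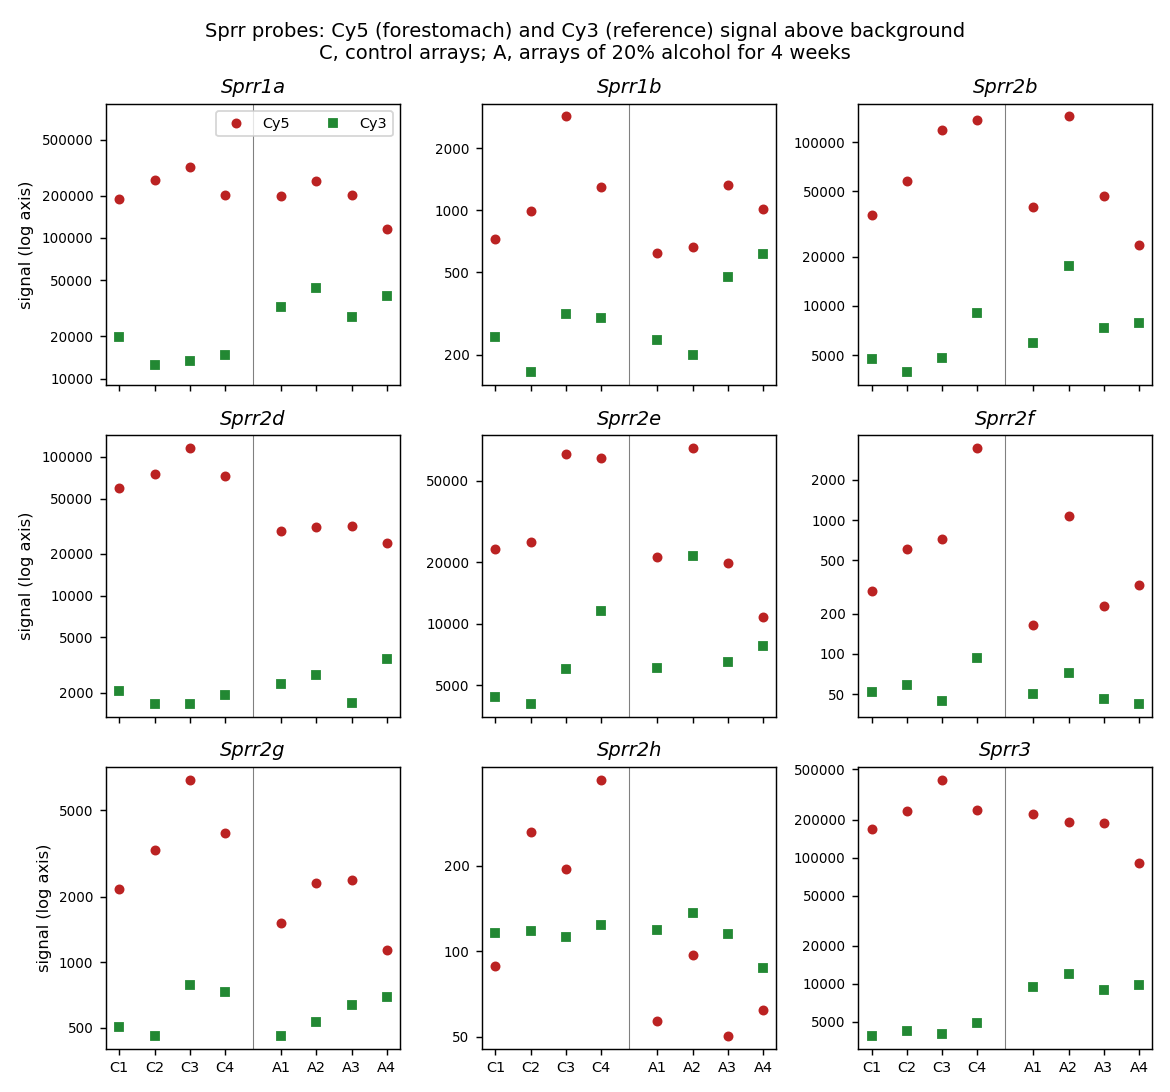
Signal above background (y axis, log scale) of each Sprr probe on the 4 control arrays and the 4 arrays of 20% alcohol for 4 weeks, with Cy5 (forestomach) as circles and Cy3 (reference) as squares, before normalisation between arrays. The Cy3 squares of Sprr1a and Sprr3 are higher on every 4-week array than on any control array, and the Cy5 circles of Sprr2d are lower. Of all kept probes, 45.9% had no overlap between the groups in Cy3 and 26.7% in Cy5, in either direction.

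**Figure D4:**
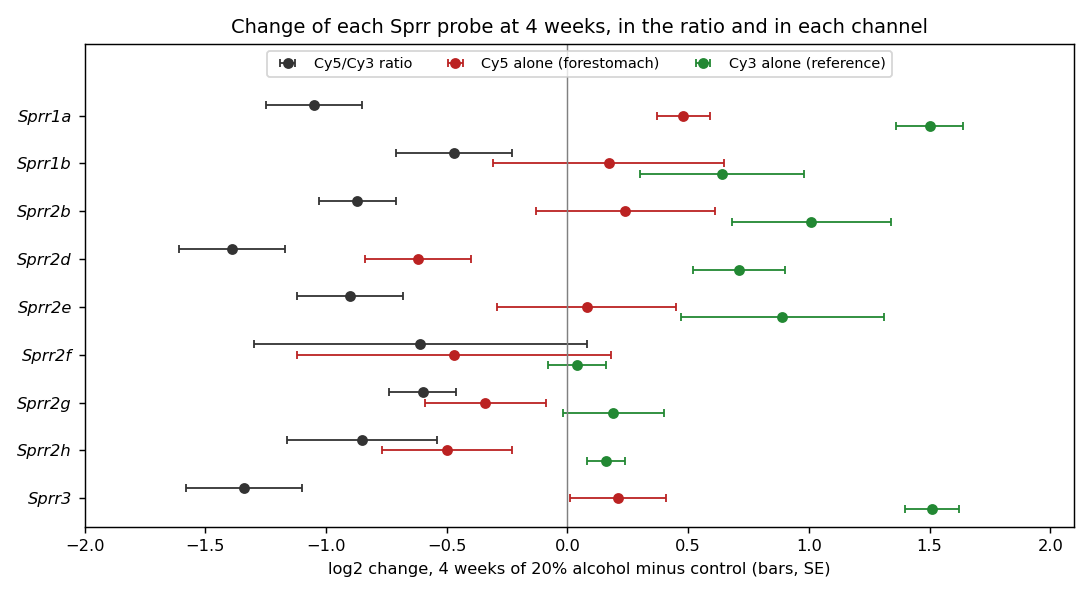
Log2 change at 4 weeks against control (x axis; bars, SE, 4 arrays a group) of each Sprr probe in the Cy5/Cy3 ratio, in normalised Cy5 alone and in normalised Cy3 alone. All 9 ratio changes lie below 0 and all 9 Cy3 changes above 0 (that of Sprr2f at 0.04), while the Cy5 changes lie on both sides of 0.

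At 40 weeks of 15% alcohol, 8 of the 9 Sprr genes were lower than in the controls in the deposited ratios and passed the test (limma, Benjamini-Hochberg, all 12 samples in the fit), against 24.2% of all probes called lower. The median change of the 9 was -2.19, beside -0.10 over all probes. The channels of the 40-week arrays were not read apart. A lower forestomach signal and a higher reference signal therefore cannot be told apart in any comparison with the 40-week samples. The size and for some genes the direction followed the scale of the deposited columns: 5 were called lower with the columns quantile-normalised (median -0.98, 22.3% of all probes) and 4 with the columns brought to one spread (median -0.93, 20.2%). The median of all probes was -0.11 and -0.06 under those scalings.

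Sprr2g, Sprr2b, Sprr2d and Sprr1a fell under all 3 scalings. Sprr2g fell by 2.38 as deposited (SE 0.13, limma adjusted p = 8.27e-07), by 1.57 after quantile normalisation and by 1.44 with one spread. For Sprr2b the 3 changes were -2.58 ± 0.16 (SE, limma adjusted p = 1.23e-06), -1.41 and -1.36. For Sprr2d they were -3.07 ± 0.21 (SE, limma adjusted p = 1.78e-06), -0.99 and -1.22, and for Sprr1a -2.22 ± 0.19 (adjusted p = 5.45e-06), -0.98 and -0.93. The place of a probe among all probes of its own sample, which no rescaling of a column alters, also differed without overlap for Sprr2g, at percentiles 95.83 to 97.11 in the controls and 89.09 to 91.65 at 40 weeks. For Sprr2b it was 97.48 to 97.85 against 93.45 to 94.96. Sprr2d, at 99.31 to 99.51 against 97.8 to 98.54, and Sprr1a, at 97.13 to 97.97 against 94.79 to 95.98, did not overlap either. The share of all probes without overlap in this measure was not computed.

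Sprr3, Sprr1b and Sprr2f had no direction that held under the scalings. Sprr3 fell by 2.19 as deposited (SE 0.23, limma adjusted p = 2.20e-05), but its change was 0.27 after quantile normalisation and 0.05 with one spread. Its percentile was 99.38 to 99.68 in the controls and 99.61 to 99.72 at 40 weeks, so it was among the highest ratios of every one of these samples. Sprr1b fell by 0.96 as deposited (SE 0.21, limma adjusted p = 0.00398), with 0.21 and 0.34 under the other scalings. Sprr2f was at -0.96 ± 0.53 (SE, limma adjusted p = 0.169) as deposited, and at 1.02 and 0.95 under the others.

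Sprr2e and Sprr2h kept their direction but not their call. Sprr2e fell by 1.40 as deposited (SE 0.20, limma adjusted p = 2.50e-04), with -0.42 (adjusted p = 0.132) and -0.25 (0.322) under the other scalings. Sprr2h fell by 1.53 as deposited (SE 0.45, limma adjusted p = 0.0175) and by 1.29 after quantile normalisation (adjusted p = 0.0451), and was at -1.20 with one spread (0.0638). As deposited, the call for Sprr2h was lost without the 3 mixed-organ arrays (-1.21, limma adjusted p = 0.115), without control replicate 4 (-1.25) and without 40-week replicate 1 (-1.25), and without 40-week replicates 3 and 4 its change was -2.15 ± 0.51 (adjusted p = 0.0144). Its percentiles were 80.11 to 93.79 in the controls, 20.48 and 41.14 in 40-week replicates 1 and 2, and 82.87 and 86.41 in replicates 3 and 4.

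Set against the 4-week samples, the 40-week samples had lower deposited ratios of 5 of the 9 Sprr genes (limma, Benjamini-Hochberg; 24.7% of all probes were called lower). The median of the 9 was -0.77, beside -0.10 over all probes. Sprr2g (-1.78 ± 0.13, SE, limma adjusted p = 1.34e-05) and Sprr2b (-1.67 ± 0.16, adjusted p = 3.52e-05) fell as deposited and under both other scalings, with changes of -1.22 and -0.93 after quantile normalisation and of -0.89 and -0.53 with one spread. Sprr2d, at -1.65 ± 0.21 (SE, limma adjusted p = 1.63e-04) as deposited, was at -0.37 and 0.07 under the other scalings, and Sprr1a, at -1.07 ± 0.19 (adjusted p = 0.00111), was at -0.24 and 0.11.

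Sprr3, Sprr1b, Sprr2e and Sprr2f turned direction with the scale in this comparison, and Sprr2h was not called. Sprr3 fell by 0.77 as deposited (SE 0.23, limma adjusted p = 0.0176), and rose by 0.86 after quantile normalisation (0.0035) and by 1.33 with one spread (0.00101). Its call as deposited was lost without 40-week replicates 3 and 4 (-0.84, limma adjusted p = 0.0686) and without 4-week replicate 1 (-0.64), 4-week replicate 3 (-0.68) or 40-week replicate 1 (-0.70). Sprr1b was at -0.39 ± 0.21 (SE, limma adjusted p = 0.157) as deposited, and rose by 0.57 (0.0425) and 0.85 (0.00461) under the other scalings. Sprr2e was at -0.46 ± 0.20 as deposited (0.0838; called at -0.59 without 4-week replicate 2), and at 0.28 and 0.58 under the others. Sprr2f was at -0.46 ± 0.53, 1.01 and 1.44, and Sprr2h at -0.49 ± 0.45, -0.38 and -0.27. In counts, 0 rose and 5 fell as deposited, 2 rose (17.8% of all probes) and 2 fell (25.1%) after quantile normalisation, and 4 rose (21.3%) and 2 fell (21.7%) with one spread.

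**Figure D5:**
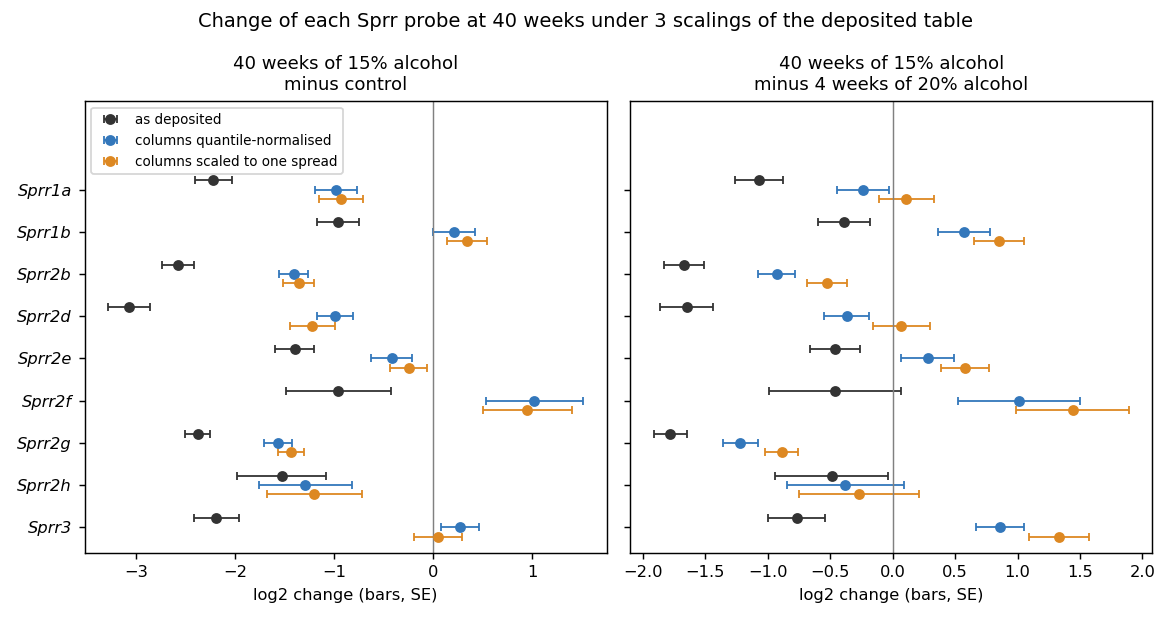
Log2 change (x axis; bars, SE) of each Sprr probe at 40 weeks of 15% alcohol against the controls (left) and against 4 weeks of 20% alcohol (right), under 3 scalings of the deposited table. Sprr2b and Sprr2g lie below 0 under all 3 scalings in both panels, whereas Sprr1b, Sprr2f and Sprr3 cross 0.

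The remaining Sprr probes of the array were read beside the members. Sprr2a1 has 2 probes, which also list Sprr2a2 and which disagreed at 4 weeks: one fell by 1.31 in the scanner ratio (SE 0.17, limma adjusted p = 0.0373) and the other was at -0.18 ± 0.27 (adjusted p = 0.769). Sprr2j-ps was at -0.84 ± 0.18 (SE, limma adjusted p = 0.0711), Sprr2k at -0.66 ± 0.18 (0.116) and Sprr4, the last gene of the cluster, at -0.02 ± 0.27 (0.977). At 40 weeks 4 of these 5 probes fell against the controls under all 3 scalings, with deposited changes of -2.65 for Sprr2k, -2.20 for the first Sprr2a1 probe, -2.01 for Sprr2j-ps and -1.99 for Sprr4. The second Sprr2a1 probe was at -0.34 and not called. It shares a run of 19 bases with the array probe named NAP100007-001. On the control and 4-week arrays its Cy3 signals were 101891 to 172542, against 3409 to 38602 for the first Sprr2a1 probe.

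The partners that Sprr proteins are joined to in the envelope were taken as a list of precursors from the same gene complex, of which 23 of 25 on the array were kept. At 4 weeks 7 of the 23 fell in the scanner ratio (limma, 0.575% of all probes called lower), with a median of -1.40. Under median centring or with one spread 0 fell, and 0 of all probes were called. The largest changes among the called genes were those of the late cornified envelope genes Lce1m (-1.75 ± 0.21, SE, limma adjusted p = 0.0373), Lce3f (-1.74 ± 0.28) and Lce1c (-1.70 ± 0.31), and repetin, Rptn (-1.51 ± 0.27), while Crct1 (-1.92, adjusted p = 0.0517) and loricrin, Lor (-1.83, 0.0772), had larger changes and were not called. In Cy5 alone 0 of 23 were called (limma, 0.22% of all probes), with a median of 0.10, and of -0.06 under median scaling. In Cy3 alone 21 of 23 rose (4.9% of all probes), with a median of 1.55. At 40 weeks against the controls 22 of 23 fell as deposited (median -2.75), 13 fell and 1 rose after quantile normalisation (median -0.75), and 15 fell and 1 rose with one spread. Of all probes 24.2%, 22.3% and 20.2% were called lower under these 3 scalings. Crct1 (-4.42), the S100-fused protein hornerin, Hrnr (-3.66), Lce3f (-3.55) and loricrin, Lor (-3.50), had the largest deposited changes, which were -2.07, -0.99, -0.99 and -1.09 after quantile normalisation.

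Of 14 genes for the cross-linking enzymes and the scaffold that carries the envelope, 3 fell in the scanner ratio at 4 weeks (limma). Their median was -0.84, and 0.575% of all probes were called lower. Under median centring or with one spread 0 fell, and 0 of all probes were called, while 1 fell without the mixed-organ arrays. The 3 were the transglutaminase Tgm1 (-1.23 ± 0.18, SE, limma adjusted p = 0.0395), envoplakin, Evpl (-1.30 ± 0.22, adjusted p = 0.0451), and desmoplakin, Dsp (-0.98 ± 0.18, adjusted p = 0.0493). For Tgm1, which cross-links Sprr proteins, the Cy5 change was -0.08 and the Cy3 change 1.01. Over the list the median was 0.24 in Cy5, and 10 of 14 rose in Cy3 (median 0.82), against 4.9% of all probes. At 40 weeks 12 of 14 fell as deposited (median -1.97), and 6 fell and 1 rose after quantile normalisation (median -0.28). Of all probes 24.2% and 22.3% were called lower. Dsc1 (-4.14), cornifelin, Cnfn (-2.91), Tgm3 (-2.54) and Evpl (-2.41) led the deposited changes, with -1.59, -0.85, -1.10 and -0.86 after quantile normalisation.

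Of 26 transcription factors described for Sprr promoters or squamous differentiation, none was called in the scanner ratio at 4 weeks (limma; median -0.01). Of all probes 0.575% were called lower in that ratio and 0.181% higher. In Cy3, Hopx (1.08, limma adjusted p = 0.00123) and Pou3f1 (0.82, adjusted p = 0.0463) rose, 2 of 26, against 4.9% of all probes called higher. At 40 weeks 9 of 26 fell and 5 rose as deposited (median -0.34), beside 24.2% and 18.1% of all probes called lower and higher. After quantile normalisation 3 fell and 7 rose (median 0.18), beside 6780 and 5172 of all 30440 probes called lower and higher. The ETS factors Ehf (-2.81) and Elf5 (-2.26), the zinc-finger factor Ovol1 (-2.70) and Hopx (-2.34) had the largest deposited changes, against -0.55, 0.09, -0.66 and -0.43 after quantile normalisation.

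Markers of the tissue's cell types were read beside these values. Of all probes, 0.575% were called lower in the scanner ratio at 4 weeks, 0 under median centring or with one spread, and 4.9% higher in Cy3. At 40 weeks against the controls 24.2% were called lower and 18.1% higher as deposited, and 22.3% lower after quantile normalisation. The 10 squamous markers had a median scanner ratio change of -0.51 at 4 weeks (2 of 10 fell, limma, and 0 under median centring or with one spread), with medians of 0.20 in Cy5 (0 called) and 0.82 in Cy3 (5 rose). At 40 weeks against the controls their median deposited change was -1.66 (9 of 10 fell), or -0.66 after quantile normalisation (5 fell and 2 rose). The 8 smooth muscle markers had a median ratio change of -0.90 at 4 weeks (3 of 8 fell, limma, and 0 under median centring or with one spread), with medians of -0.21 in Cy5 (0 called) and 0.72 in Cy3 (6 rose). At 40 weeks their median was -1.62 as deposited (8 of 8 fell) and -0.32 after quantile normalisation (3 fell and 2 rose). Their summed Cy5 signal ranged from 1448823 to 1953935 in controls and from 600402 to 1207854 at 4 weeks.

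The 8 adipocyte markers had a median ratio change of -1.16 at 4 weeks (1 of 8 fell, limma), or -0.45 without the mixed-organ arrays. At 40 weeks their median was -1.92 as deposited (2 fell and 1 rose) and -0.20 after quantile normalisation (1 fell and 1 rose). Their summed Cy5 signal varied within the groups, from 63169 to 402545 in controls and from 42460 to 295731 at 4 weeks. The 9 leukocyte markers were at -0.47 at 4 weeks (1 fell), or 0.03 without the mixed-organ arrays (1 fell). At 40 weeks they were at -0.19 (3 fell and 1 rose), or -0.96 without 40-week replicates 3 and 4 (4 fell and 1 rose). The 12 pancreas markers were at -1.77 (0 called, limma) and -2.38 (2 fell), and at -0.25 at 4 weeks without the mixed-organ arrays (1 fell). The 10 glandular stomach markers were at -0.55 and -0.92, with 0 called in either comparison (limma), and at 0.09 at 4 weeks without those arrays. The part of the tissue's makeup in the Sprr values was not tested.

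The genes whose profile was most like the mean Sprr profile were found among the named non-member genes with a kept probe. Over the deposited ratios of 12 samples these were Csta (Pearson's r = 0.995), Ccdc64b (0.991), Atp6v1c2 (0.991), Fa2h (0.99) and Fabp4 (0.989), of 15151 genes. Csta encodes cystatin A, itself a component of the cornified envelope, and Fabp4 a fatty acid binding protein of adipocytes. Over the Cy5 values of the 8 arrays they were Gsto2 (0.96), Cd27 (0.955), Hcst (0.952), Itgb2 (0.947) and Grk6 (0.946), of 15125 genes. No gene stands in both lists, and the correlations describe samples that share their groups.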

How the data were processed

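Raw intensity values of both channels came from the scanner files deposited by the authors for the 8 control and 4-week arrays, read by Agilent Feature Extraction 10.7.3.1 per the file headers; the submitters' processing notes give version 9.1. The flags for signals well above background, saturated or outlying are other columns of those deposited files. The log10 ratio in the files was read, per the file headers, as Cy5 over Cy3 to set the direction. The deposited table of log2 ratios covers all 12 samples; how its columns were scaled is not given in the sources used here.

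From the intensities, normexp background correction (offset 50), loess within arrays for the ratio and quantile normalisation of each channel were computed with limma 3.58.1 in R 4.3.3. Control spots and outlier flags were left out. Probes well above background in Cy5 on at least 3 of 4 arrays of a group were kept. Tests were limma fits with Benjamini-Hochberg adjustment over all kept probes at 0.05, tested on simulated data; the 40-week comparisons used all 12 deposited columns. The members and gene lists were chosen with earlier results of these data known. Named non-members were the other Sprr genes, up to 4 genes a list (called with the largest change, or smallest p) and the 5 most correlated genes per measure.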

Additional observations from a re-analysis of the deposited data

Results flagged for a closer look

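Of 63 groups of 4 samples checked, 4 held a sample far from the other 3 by Dixon's criterion, which chance alone gives in about 1 group of 20. In 4-week replicate 2 the Sprr2b Cy3 signal above background was 17524, against 5968 to 7882 on the other 4-week arrays. On the same array Sprr2e had 71947 in Cy5, against 10788 to 21086, and 21483 in Cy3, against 6064 to 7791. The probes of these genes share letters, so the signals are not independent. In control replicate 4 the Sprr2f Cy5 signal was 3452, against 297 to 720 on the other control arrays. Both arrays are those with glandular stomach transcripts, whose part in these values was not tested.

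The change against the same controls differed between 40 weeks of 15% alcohol and 4 weeks of 20% alcohol for 5 genes by the direct test between these groups (limma, adjusted p under the threshold). In the deposited ratios the differences were -1.07 for Sprr1a, -1.67 for Sprr2b, -1.65 for Sprr2d, -1.78 for Sprr2g and -0.77 for Sprr3. By the same test 24.7% of all probes were called lower. All 4 samples of each group of Sprr1a, Sprr2b, Sprr2d and Sprr2g lay on their own side. This was 4 of 9 members, near the 46.8% of all probes without overlap in this comparison. With the columns brought to one spread the differences for Sprr1a, Sprr2d and Sprr3 were 0.11, 0.07 and 1.33, and those for Sprr2b and Sprr2g stayed negative at -0.53 and -0.89.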

How the results depend on the processing

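Of the ratio comparison at 4 weeks, in which 2 members were called, 5 were called with no background correction and with the scanner's processed signals, 4 with array weights, 1 without the filter and 1 without the 3 mixed-organ arrays. Of all 30440 probes, 175 were called lower in the main fit, 442 with no background correction and 406 with processed signals. Array weights called 468 lower and the fit without the mixed-organ arrays 325. Without the filter 131 of 41174 probes were called lower. None (0) was called with a normexp offset of 10, median centring, scaling to one spread, the deposited table of the 8 arrays or, chosen after seeing the data, without the 2 arrays with glandular stomach markers. Of all 30440 probes the offset of 10 called 23 lower and 4 higher, and the other settings just named called 0. Leaving out each array gave 0 members in all 8 cases, with at most 20 of all probes called lower and 2 higher. An unadjusted p under 0.05 (limma) held for 8 members under median centring, 7 with the replicate block and 0 with one spread. Over all 30440 probes it held for 3912, 5497 and 4700. The replicate numbers did not pair the samples: same-numbered deviations correlated at 0.32, -0.46, 0.16 and -0.24 between control and 4-week arrays. With the replicate number as a block, 0 members were called at 4 weeks in the ratio and 0 in Cy5, where 0 of all probes were called too. That block gave 2 members in Cy3, 8 at 40 weeks and 5 between the alcohol groups. Of all 30440 probes it called 1112 higher in Cy3, 7204 lower at 40 weeks and 7358 lower between the alcohol groups. In Cy3, 4 were called without the mixed-organ arrays, and 2 to 4 on leaving out each array. Of all 30440 probes 347 were called higher in the first case and 632 to 1820 in the second. At 40 weeks against control 5 were called after quantile normalisation and 4 with one spread, beside 6780 and 6158 of all 30440 probes called lower. Leaving out each sample gave 7 to 8 members, beside 6025 to 7912 of all probes called lower. Between the alcohol groups that range was 4 to 6, beside 6145 to 8098 of all probes.

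Turned directions were these. The Sprr2f ratio at 4 weeks was 0.00 without control replicate 4 and -1.07 without control replicate 1, the ends of its range on leaving out each array. In Cy5, Sprr1b was at -0.00, -0.01 and -0.19 without control replicate 2, 4-week replicate 3 and 4-week replicate 4, with 0.48 at the other end; Sprr2b was at -0.05 without 4-week replicate 2, up to 0.52. Sprr2e was at -0.11 under median scaling, and at -0.01, -0.17 and -0.21 without control replicate 1, control replicate 2 and 4-week replicate 2, up to 0.30. Sprr2f was between -0.80 and 0.16 on leaving out each array, at 0.16 without control replicate 4 and 0.03 without the mixed-organ arrays, where Sprr2g was at 0.07. In Cy3, Sprr2f was at -0.02 under median scaling, -0.11 with processed signals at the 75th percentile, and -0.02, -0.00 and -0.03 without control replicate 1, control replicate 3 and 4-week replicate 2, up to 0.15. At 40 weeks against control, quantile normalisation and one spread gave 0.21 and 0.34 for Sprr1b, 1.02 and 0.95 for Sprr2f, and 0.27 and 0.05 for Sprr3; percentile differences, chosen after seeing the data, were 0.454, 1.33 and 0.159. Between the alcohol groups the same scalings gave 0.57 and 0.85 for Sprr1b, 0.28 and 0.58 for Sprr2e, 1.01 and 1.44 for Sprr2f, and 0.86 and 1.33 for Sprr3, and one spread gave 0.11 for Sprr1a and 0.07 for Sprr2d. The cause was not tested. Values of Sprr2f and Sprr2h rest on low signals.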
